A study of Mus musculus with 6 samples.

Results

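The genes described here encode the enzymes and the modifier of ISG15 conjugation, a ubiquitin-like pathway. They are Isg15 (the modifier), Uba7 (the E1 activating enzyme), Ube2l6 (the E2 conjugating enzyme), Herc6 (the E3 ligase) and Usp18 (the protease that removes ISG15). They were chosen by name for these roles, and all 5 were found among the 24346 genes measured. ISG15 is a small protein built of a pair of ubiquitin-like domains. It is activated by UBA7, passed to UBE2L6 and attached to lysines of target proteins by a HERC ligase, which in the mouse is mainly HERC6. Interferons induce all of these genes, and USP18 also acts apart from its protease activity, by binding the interferon receptor chain IFNAR2 together with STAT2 and damping the signal.

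RNA was sequenced from colonic stromal cells of 6 mice aged 12 weeks that had been given 1% dextran sulfate sodium (DSS), a compound that injures the colonic epithelium. The cells had been sorted as live and Podoplanin-positive, without CD45, CD31 or EpCAM. The floxed control group held mice 8, 9 and 43, with the genotype Il10ra ff, in which both copies of the interleukin-10 receptor gene Il10ra carry loxP sites and no cre is listed. The Pdgfra-cre group held mice 13, 23 and 25, with the genotype Il10ra ff; Pdgfra-cre, in which a cre recombinase driven by Pdgfra, a gene of fibroblasts, can delete the floxed gene. Floxed Il10ra and DSS were thus common to both groups, and no group without DSS or with unmodified Il10ra was analysed here. The study's title puts type I interferon signaling in fibroblasts at its centre.

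Values are FPKM, which are fragments scaled to transcript length and to the number of mapped fragments, so levels of different genes may be compared. Total read numbers are not given in the sources used here. A rough estimate from the most frequent low values put 1 read per kilobase at 0.112 to 0.135 FPKM in the 6 libraries. The search was limited beforehand to 0.05 to 0.2 FPKM, so the estimate had to fall in that range. On that estimate about 47 to 435 reads lay behind each Isg15 value, 108 to 603 behind Usp18, 113 to 348 behind Herc6, 287 to 1031 behind Uba7 and 1059 to 3248 behind Ube2l6. Summed over 8 fibroblast markers, FPKM ranged from 15810 to 19145 in control libraries and from 18979 to 19358 in Pdgfra-cre libraries. Single markers of this sum went both ways. Pdgfra itself was lower in Pdgfra-cre without overlap, at 178.2 to 199.9 FPKM in controls and 120.5 to 173.6 FPKM in Pdgfra-cre. Dcn was higher without overlap, at 8626 to 9149 and 9697 to 11261 FPKM. Col1a1, Col1a2, Col3a1, Pdpn, Lum and Thy1 overlapped between groups. Il10ra was listed at 0 in 5 libraries and at 0.418 FPKM in control 43, so the deletion could not be checked. Pdgfra-cre library 23 correlated least with the remaining libraries on average (mean Pearson r of log2 values 0.950, while the other 5 had 0.960 to 0.970). Its S100a8 value, a neutrophil gene, was 94.7 FPKM, against 0 to 9.42 FPKM in the others.

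The gene for the modifier carries a recognizable interferon element just before its start. The stretch below is shown because of the 4 members with an upstream window only Isg15 matched the core of the interferon-stimulated response element (ISRE), a site through which interferons switch genes on. It lies at chr4:156200835-156200936 (GRCm38, minus strand), is written 5′ to 3′, and has in capitals the bases covered by the matches.

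Isg15 upstream stretch: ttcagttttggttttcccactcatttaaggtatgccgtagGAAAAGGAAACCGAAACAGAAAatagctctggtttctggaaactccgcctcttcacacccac

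The core searched was GAAANNGAAA on both strands, in the 250 bases before each gene's RefSeq start (build GRCm38.p6). The Isg15 window held 3 overlapping matches, which begin 78, 72 and 66 bases before the start. Of all 32851 such windows, 978 (2.98%) held at least 1 match. Windows were found for 4 of the 5 members, all but Usp18, and those of Uba7, Ube2l6 and Herc6 held none. A second interferon-linked motif, TTCNNNGAA, was also searched and was in none of these 4 windows, against 7.02% of all windows. Only exact matches were counted, so a site that differs from the core by 1 letter was not found. A match describes the letters only, and no binding was measured.

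Ube2l6 was the most abundant of the 5 transcripts and Herc6 the least in each of the 6 libraries. Mean levels in controls were 88.7 FPKM for Ube2l6, 12.4 for Isg15, 11.6 for Uba7, 8.97 for Usp18 and 3.92 for Herc6. The middle members, Isg15, Uba7 and Usp18, changed places between libraries, so their order was not distinguishable. The lowest value of any member was 2.66 FPKM, for Herc6 in control 8. Every member therefore passed the filter (FPKM of 1 or more in no fewer than 3 libraries) in both groups.

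All 5 genes had higher mean levels in the Pdgfra-cre libraries, by 1.68-fold to 2.81-fold, but none passed the test between genotypes. In limma, with Benjamini-Hochberg adjustment over 11429 genes, 0 of 5 members had an adjusted p under 0.05. The same held for all genes, of which 0.00% were called. Leaving out 1 library gave up to 33 calls over all genes (33 without Pdgfra-cre 25, 3 without Pdgfra-cre 13 and 2 without control 43), none of them a member. At an unadjusted p under 0.05, 4 of 5 members were higher in Pdgfra-cre (all but Ube2l6), against 5.47% of tested genes. That count was 2 (Herc6 and Usp18) without Pdgfra-cre 23, without control 43, with no filter or with no variance trend, and it was 5 without Pdgfra-cre 13 or 25. The groups did not overlap in 2 of 5 (Ube2l6 and Herc6), against 8.07% of tested genes that were higher without overlap. The median log2 fold change was 0.82 over the members and 0.0012 over all genes tested. These are bulk samples, so more RNA per cell and more cells of an expressing kind cannot be told apart.

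**Figure D1:**
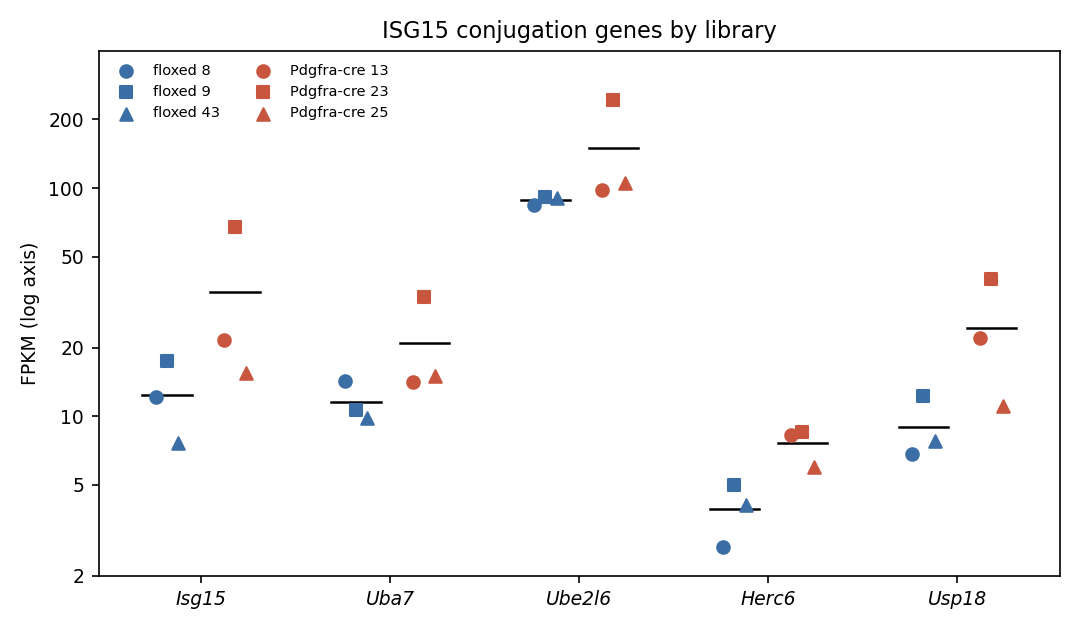
FPKM on a log axis for the 5 ISG15 conjugation genes in each library (blue, floxed; red, Pdgfra-cre; the shape marks the mouse), with group means as bars. Library 23 is highest for every gene, but for Herc6 it lies next to library 13 (8.56 and 8.30 FPKM).

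Isg15, the modifier, had the widest fold range of the 5 genes, its highest library being 8.84 times its lowest. Controls 8, 9 and 43 had 12.1, 17.5 and 7.63 FPKM, and Pdgfra-cre 13, 23 and 25 had 21.7, 67.4 and 15.5. The groups overlapped, since control 9 lay above Pdgfra-cre 25, while libraries 13 and 23 lay above every control. Control and Pdgfra-cre means were 12.4 ± 4.95 and 34.9 ± 28.4 FPKM (SD, n = 3 each). The log2 fold change was 1.2 ± 0.48 (SE, 95% interval 0.13 to 2.28) on the log2(FPKM + 1) scale, with a limma adjusted p of 0.385. This scale slightly understates differences of low genes. Without library 23 the log2 fold change was 0.60. The gene spans chromosome 4, 156199424 to 156200818 (mm10, minus strand), and has a transcript of 756 bases, the shortest of the 5.

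Uba7, whose enzyme activates ISG15 and commits it to the pathway, differed by less. Its values were 14.3, 10.7 and 9.78 FPKM in controls 8, 9 and 43 and 14.1, 33.4 and 15.1 FPKM in Pdgfra-cre 13, 23 and 25. Library 23 stood alone at 2.22 times the next highest library, and libraries 13 and 25 lay at about the level of control 8. Means were 11.6 ± 2.37 and 20.9 ± 10.9 FPKM (SD, n = 3 each). The log2 fold change was 0.71 ± 0.30 (SE, 95% interval 0.023 to 1.39; limma adjusted p = 0.430), and 0.33 without library 23. Uba7 lies on chromosome 9, 107975505 to 107984060 (mm10), where the annotated gene Gm20661 overlaps it on the same strand, so shared reads could not be assigned with certainty.

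Ube2l6, whose product carries ISG15 to the ligase, was steady in controls and high in 1 Pdgfra-cre library. It had 84.6, 91.3 and 90.2 FPKM in controls 8, 9 and 43, and 98.5, 244 and 105 in Pdgfra-cre 13, 23 and 25. The groups did not overlap, although libraries 13 and 25 were only 1.11 and 1.18 times the control mean. The coefficient of variation was 4.08% in controls and 55.1% in Pdgfra-cre. Group means were 88.7 ± 3.62 and 149 ± 82.2 FPKM (SD, n = 3 each), with a log2 fold change of 0.61 ± 0.29 (SE, 95% interval -0.046 to 1.27; limma adjusted p = 0.5). Leaving out library 23 gave 0.20. The gene lies on chromosome 2, 84798828 to 84810335 (mm10). Its close paralog Ube2l3, an E2 that serves ubiquitin, had means of 55.7 ± 2.45 and 56.3 ± 8.91 FPKM, and its value in library 23 was 55.0. The Ube2l3 log2 fold change was 0.0069 (95% interval -0.30 to 0.32, limma adjusted p = 0.995).

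Herc6, the ligase gene, had the lowest unadjusted p of the 5 members (0.00841), and its difference was about as large without library 23. Controls 8, 9 and 43 had 2.66, 5.01 and 4.08 FPKM, and Pdgfra-cre 13, 23 and 25 had 8.30, 8.56 and 5.98. Each Pdgfra-cre library lay above each control, and library 23 was only 1.03 times library 13. Herc6 was the only member whose coefficient of variation was smaller in Pdgfra-cre (18.7%) than in controls (30.2%). Means were 3.92 ± 1.18 and 7.61 ± 1.42 FPKM (SD, n = 3 each). The log2 fold change was 0.82 ± 0.25 (SE, 95% interval 0.27 to 1.38; limma adjusted p = 0.253), and 0.74 without library 23. Herc6 lies on chromosome 6, 57581000 to 57664632 (mm10), overlapped by the annotated genes Gm19244 (a processed pseudogene on the other strand) and Gm45193.

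Usp18, which takes ISG15 off its targets and restrains the receptor, had about the same log2 fold change as Isg15, the highest pair of the 5. Its values were 6.81, 12.3 and 7.81 FPKM in controls 8, 9 and 43 and 22, 39.9 and 11.1 FPKM in Pdgfra-cre 13, 23 and 25. Libraries 13 and 23 were above every control and library 25 was below control 9. Means were 8.97 ± 2.92 and 24.4 ± 14.5 FPKM (SD, n = 3 each). The log2 fold change was 1.21 ± 0.39 (SE, 95% interval 0.33 to 2.1; limma adjusted p = 0.283), and 0.78 without library 23. Without library 25 it was 1.66, with a limma adjusted p of 0.0790, the lowest of any member under any setting tried. The gene lies on chromosome 6, 121245906 to 121270917 (mm10), with the annotated antisense gene Gm44148 overlapping it.

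**Figure D2:**
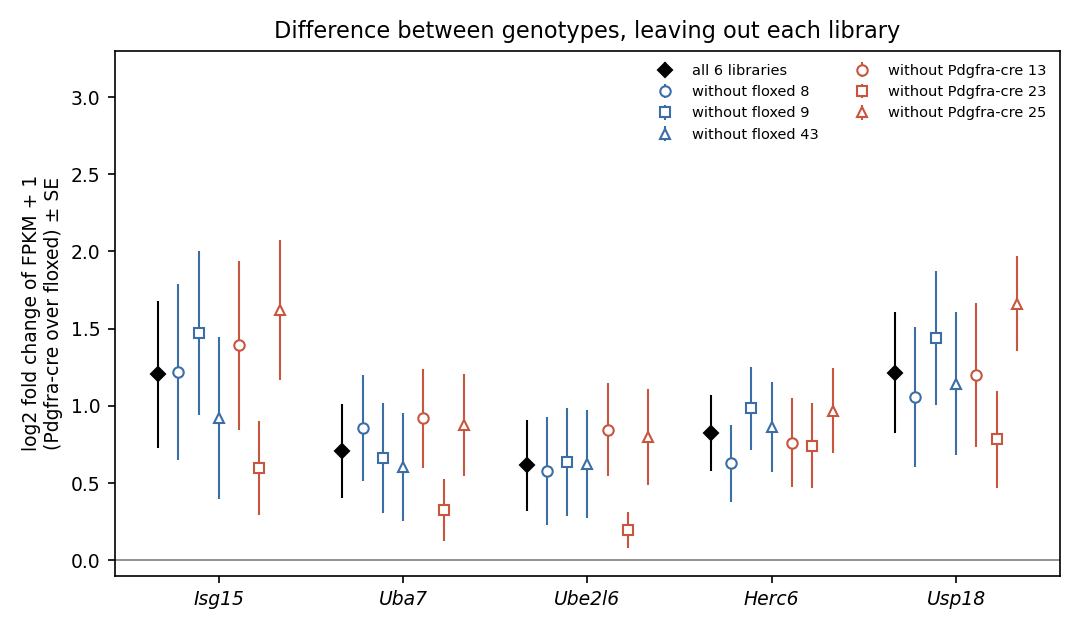
Log2 fold change of FPKM + 1 between Pdgfra-cre and floxed libraries (± SE) for each gene, with all 6 libraries and after leaving out each one. All estimates lie above 0, and leaving out Pdgfra-cre library 23 lowers Ube2l6 to 0.20 and Uba7 to 0.33 but Herc6 only to 0.74.

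The 3 Pdgfra-cre libraries differed among themselves in which members were high. Library 13 had 2.46 times the control mean of Usp18, 2.12 times that of Herc6 and 1.75 times that of Isg15, but 1.22 times that of Uba7 and 1.11 times that of Ube2l6. In library 23 the factors were 5.43 for Isg15, 4.45 for Usp18, 2.89 for Uba7, 2.75 for Ube2l6 and 2.19 for Herc6. In library 25 the factors were 1.18 to 1.53, with Herc6 the highest. So Uba7 and Ube2l6 were high mainly in library 23, while Herc6 and Usp18 were high in libraries 13 and 23. Over the 6 libraries the Pearson correlation of log2 values was 0.93 for Uba7 with Ube2l6, 0.94 for Isg15 with Usp18 and 0.90 for Herc6 with Usp18, against 0.56 for Uba7 with Herc6. These 6 points share the genotype difference and library 23, and are given as a description.

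Dividing each enzyme by Isg15 within the same library removes the scale of the library and asks whether an enzyme and the modifier differed by the same factor. The Ube2l6 to Isg15 ratio was 6.99, 5.22 and 11.8 in controls 8, 9 and 43 and 4.54, 3.62 and 6.78 in Pdgfra-cre 13, 23 and 25. The log2 ratio differed by -0.65 between groups (exact two-sided permutation p = 0.2, adjusted over 4 ratios 0.6). For Uba7 the ratio was 0.609 to 1.28 in controls and 0.495 to 0.973 in Pdgfra-cre (log2 difference -0.52, exact permutation p = 0.3). For Herc6 it was 0.220 to 0.535 in controls and 0.383, 0.127 and 0.386 in libraries 13, 23 and 25 (log2 difference -0.28, exact permutation p = 0.7). For Usp18 it was 0.563 to 1.02 in controls and 0.592 to 1.02 in Pdgfra-cre, a log2 difference of 0.032 (exact permutation p = 0.8). All 4 ratios overlapped between groups, and 3 libraries against 3 cannot give a p below 0.1. The direction of 2 ratios turned when single libraries were left out. The Herc6 difference ran from -0.56 to 0.25, turning without control 43 or Pdgfra-cre 23, and the Usp18 difference from -0.18 to 0.27, turning without control 8, control 9 or Pdgfra-cre 13.

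**Figure D3:**
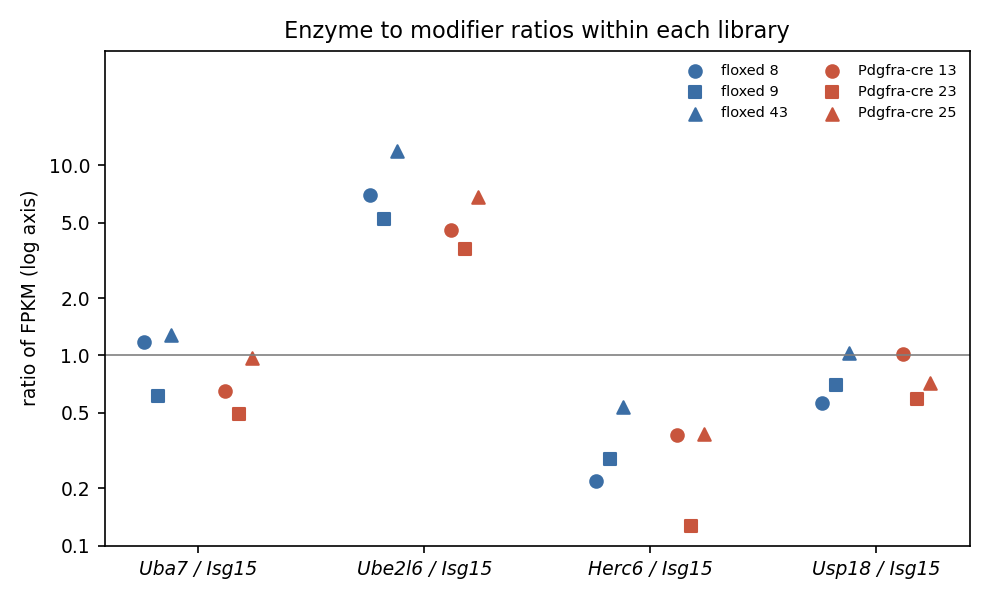
Ratio of each enzyme's FPKM to that of Isg15 in the same library, on a log axis (blue, floxed; red, Pdgfra-cre). All 4 ratios overlap between groups, and the lowest Herc6 ratio is that of library 23 (0.127).

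Stat2 and Irf9, which encode transcription factors of the interferon response, had higher values in Pdgfra-cre without overlap. The receptor chains overlapped between groups, and none of these genes passed limma's adjusted p. Of 7 tested genes for the interferon receptor, its kinases, these factors and the USP18 regulator SKP2, 4 were above 0 (median log2 fold change 0.13), and 0 passed limma's adjusted p. Irf9 had the lowest unadjusted p of the list, with 22.7, 28.3 and 29.6 FPKM in controls 8, 9 and 43 and 36.6, 53.8 and 33.4 in Pdgfra-cre 13, 23 and 25. Its log2 fold change was 0.58 (limma adjusted p = 0.298), and 0.38 without library 23. Stat2, which tethers USP18 to the receptor, was 16.7, 19.2 and 16.2 FPKM in controls 8, 9 and 43 and 27.0, 52.1 and 20.1 in Pdgfra-cre 13, 23 and 25. For Stat2 the log2 fold change was 0.78 (limma adjusted p = 0.351), and 0.41 without library 23. These 2 were the genes of the list with an unadjusted p under 0.05, and also those without overlap. Over all tested genes, 5.47% were higher at that p and 8.07% were higher without overlap. For the counts above 0 in this and the later lists, the share over all tested genes was 50.3%. Ifnar2, the chain that USP18 binds, was 138 ± 20.2 and 151 ± 28.9 FPKM, with a log2 fold change of 0.13 (95% interval -0.23 to 0.49). Jak1, its kinase, named after its values were seen, was 112 ± 11.1 and 107 ± 7.31 FPKM.

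None of the other tested genes for enzymes reported to add or remove ISG15, or for relatives of Herc6, passed limma's adjusted p. Of the list of other ligases and small HERC genes, Arih1, Trim25 and Herc4 were tested. All 3 were above 0 (median 0.18), with 0 called. Herc4 was listed as a relative of Herc6, not as a reported ISG15 ligase. Without library 23 the median was -0.022 and 1 of the 3 was above 0. Arih1, an E3 that can work with UBE2L6, was 11.5 ± 1.73 and 15.0 ± 1.86 FPKM (SD, n = 3 each; log2 fold change 0.36, limma adjusted p = 0.508). Herc3, a relative of Herc6 also named after its values were seen, was at 0.0261 to 0.617 FPKM and below the filter. Of 6 proteases reported to act on ISG15 as well as ubiquitin, 3 were above 0 and 3 below, with a median of 0.024. Usp21 had the lowest unadjusted p among them (0.284), at 20.2 ± 1.85 and 18 ± 0.396 FPKM. It was lower in Pdgfra-cre without overlap, by a narrow gap (18.40 FPKM in Pdgfra-cre 25 and 18.42 FPKM in control 8). The same held for 947 of 11429 tested genes that were lower without overlap. Usp5, the most abundant, was 29.4 ± 2.43 and 29.8 ± 8.31 FPKM.

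Genes whose proteins are reported to be ISGylated were spread around 0, with 7 of 11 tested above 0, 4 below and a median of 0.18. Eif4e2, a cap-binding protein gene, had the lowest unadjusted p, with 23.7, 20.1 and 22.4 FPKM in controls 8, 9 and 43 and 32.6, 28.3 and 27.5 in Pdgfra-cre 13, 23 and 25. Its groups did not overlap, its log2 fold change was 0.40 (limma adjusted p = 0.315), and it was 0.43 without library 23. Pcna, the replication clamp gene and the most abundant of the list, was 91.7 ± 6.84 and 104 ± 10.04 FPKM (SD, n = 3 each).

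The parallel machinery of other ubiquitin-like systems gave medians near 0. Among 9 genes for other E1 enzymes, 6 were above 0 (median 0.072) and 0 were called. Sae1, an E1 subunit of the SUMO pathway and the most abundant, was 61.4 ± 4.10 and 61.0 ± 8.36 FPKM. Atg7, the E1 of autophagy, had the lowest unadjusted p of that list. It was 7.77, 8.41 and 8.79 FPKM in controls 8, 9 and 43 and 9.86, 17.0 and 10.1 in Pdgfra-cre 13, 23 and 25, so library 23 was high for this E1 as well. Its log2 fold change was 0.48 (limma adjusted p = 0.483), and 0.24 without library 23. Of 11 modifier genes, 8 were above 0 with a median of 0.075. The ubiquitin gene Ubb, which had both the highest level and the lowest unadjusted p of that list, was 2556 ± 169 and 2874 ± 251 FPKM (log2 fold change 0.17, limma adjusted p = 0.681).

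**Figure D4:**
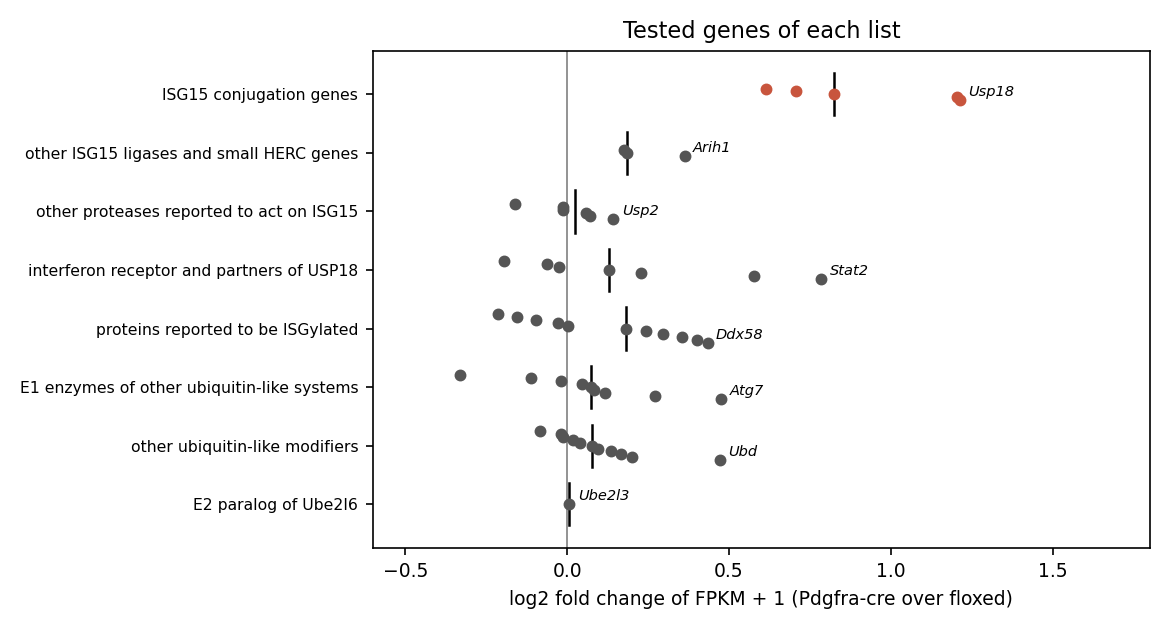
Log2 fold change of FPKM + 1 (Pdgfra-cre over floxed) of each tested gene in 8 lists, with the list median as a bar and the highest gene of each list named. The 5 ISG15 conjugation genes lie between 0.61 and 1.21, and the other lists have medians between 0.0069 and 0.18.

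Among 7875 other tested genes averaging 5 FPKM or more, those whose library pattern was most like the members' were Tspo, Tapbp, Hax1, Stat2 and Ly6a. Likeness was the Pearson correlation over the 6 libraries with the mean of the 5 members, each scaled to its own mean and SD. It lay between 0.992 and 0.999. The genes were picked for high values over 6 points that share the genotype difference and library 23, so likeness is only a description. Without library 23 the log2 fold change fell from 0.30 to 0.17 for Tspo and from 0.53 to 0.32 for Tapbp. For Hax1 it fell from 0.29 to 0.18 and for Ly6a from 0.81 to 0.44. It rose for each of them without library 13 or 25. Tspo, which encodes a mitochondrial outer membrane protein, was 318, 335 and 311 FPKM in controls 8, 9 and 43 and 373, 472 and 351 in Pdgfra-cre 13, 23 and 25. Tapbp, which encodes the peptide-loading chaperone tapasin, was 207 ± 19.3 and 306 ± 84.3 FPKM (SD, n = 3 each). Ly6a, which encodes the surface protein Sca-1, was 1555 ± 228 and 2901 ± 1385 FPKM. Of these 5 genes, Stat2 also belongs to the list of USP18 partners above.

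Levels of leukocyte and other markers were read beside these results, because leukocytes also express ISG15 pathway genes. The sum of 5 neutrophil markers was 1.36 to 9.39 FPKM in controls, 16.0 in Pdgfra-cre 13, 162 in library 23 and 10.3 in library 25. That of 4 general leukocyte markers (Ptprc, Laptm5, Coro1a and Cd53) was 1.06 to 2.58 FPKM in controls, 6.51 in library 23 and 0.879 and 0.890 in libraries 13 and 25. Macrophage markers (7 genes) summed to 21.2 to 30.5 FPKM in controls, 40.7 in library 23, and 27.6 and 17.2 in libraries 13 and 25. Of 5 plasmacytoid dendritic cell markers, Cox6a2 and Pacsin1 were listed at 0 in all libraries, and the sum was at most 1.01 FPKM. Epithelial markers (6 genes) reached 28.7 FPKM in library 23, against 0.512 to 13.7 elsewhere. Most of that sum in library 23 was Krt8 (11.5 FPKM) and Krt19 (15.4 FPKM), while Epcam was at 1.11 and Cdh1 at 0.664 FPKM. Mesothelial markers (4 genes), which also include Krt19, summed to 1.95 to 9.66 FPKM in controls. Their sums were 20.1, 57.1 and 10.8 FPKM in libraries 13, 23 and 25. The neutrophil and mesothelial sums were thus above every control in all 3 Pdgfra-cre libraries, but not each marker was. S100a8 and S100a9 made up most of the neutrophil sum in these libraries, while Csf3r, Cxcr2 and Mmp8 overlapped between groups. Each of the overlapping neutrophil markers was also highest in library 23, at low levels. Csf3r was 0.668 FPKM there and at most 0.0958 elsewhere, Cxcr2 2.55 and at most 1.21, and Mmp8 0.690 and at most 0.420. S100a8 in library 25 (6.90 FPKM) was close to that in control 9 (6.84 FPKM). Of the mesothelial markers, Msln and Upk3b were higher without overlap, and Krt19 and Wt1 overlapped. The sum of 5 smooth muscle markers was 544 to 564 FPKM in controls and 295, 129 and 328 in libraries 13, 23 and 25. The part of these markers in the values of the 5 members was not tested.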

How the data were processed

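Gene-level FPKM values were used as deposited by the authors, in 1 table per library. Per the labels' protocols, total RNA was made into full-length cDNA with a SMART-Seq HT kit and tagmented with Nextera XT, which keeps no strand. The submitters' processing notes name mm10, TopHat2 2.1.1, Bowtie2 2.2.8, SAMtools 0.1.18 and Cuffdiff 2.2.1. The annotation and read numbers are not given in the sources used here.

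The genes, lists and tests were chosen with earlier results of these data known. R 4.3.3 and limma 3.58.1 were fitted on log2(FPKM + 1) over 11429 genes at 1 FPKM or more in no fewer than 3 libraries, with a variance trend, Benjamini-Hochberg adjustment and a threshold of 0.05. Ratios were compared by exact permutation (SciPy 1.17.1). The procedure was tested on simulated data. The simulated noise was independent between genes and libraries, so it held no library that stood apart. Named genes were all members and, from each other list, the gene with the lowest unadjusted p and the most abundant one, plus the 5 genes most like the members. Jak1, Herc3, Ubd, Mx1, Skp2, Mocs3 and single cell type markers were named outside this rule, after their values were seen. Of the listed genes, Usp41, Ly6g, Trac and Trbc2 were not analysed here, and 1 other is not reported here. Locations and transcript lengths came from GENCODE M21 (mm10), and promoter windows from RefSeq. Each library is a different mouse. Alternatives were other pseudocounts, filters, scalings, priors and weights and leaving out each library, with the tested genes held fixed in that case.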

Additional observations from a re-analysis of the deposited data

How the results depend on the processing

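Each member's log2 fold change stayed above 0 and on the same side of the threshold under all 16 alternatives. With all libraries the range was 0.90 to 1.26 for Isg15, 0.45 to 0.75 for Uba7, 0.43 to 0.62 for Ube2l6, 0.50 to 0.97 for Herc6 and 0.97 to 1.29 for Usp18. Leaving out each library in turn gave 0.60 to 1.62 for Isg15, 0.33 to 0.92 for Uba7, 0.20 to 0.85 for Ube2l6, 0.63 to 0.98 for Herc6 and 0.78 to 1.66 for Usp18. Adjusted p over all alternatives ran from 0.0790 to 0.736. The number of genes past the threshold was 0 with all libraries under each setting, and 0 to 33 when a library was left out (33 without Pdgfra-cre 25, 3 without Pdgfra-cre 13 and 2 without control 43, none of them a member). The log2 difference of the ratio to Isg15 ran from -0.85 to -0.29 for Uba7 and from -0.92 to -0.33 for Ube2l6 when a library was left out. It ran from -0.56 to 0.25 for Herc6, turning without control 43 or Pdgfra-cre 23, and from -0.18 to 0.27 for Usp18, turning without control 8, control 9 or Pdgfra-cre 13. The mouse numbers differ between groups, and no paired analysis was possible because they pair no libraries. With 3 mice a group and depth known only roughly, the differences seen in the 5 members did not pass the test across all genes.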

Other observations

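Ubd encodes FAT10, another modifier built of a pair of ubiquitin-like domains, which interferon gamma and tumor necrosis factor induce. Its highest value was in a control, with 0, 4.02 and 1.44 FPKM in controls 8, 9 and 43 and 2.72, 3.80 and 0.823 in Pdgfra-cre 13, 23 and 25 (named after its values were seen). Its log2 fold change was 0.47, with a 95% interval of -0.80 to 1.74. Mx1, an interferon-induced antiviral GTPase gene also named after its values were seen, lay below the filter at 0 to 2.99 FPKM, with its highest value in library 23. Among the other listed genes, the ISRE core was also found upstream of Stat2, Skp2 and Mocs3. Stat2 and Skp2 were 2 of 7 genes with a window in the list of USP18 partners. Mocs3 was 1 of 6 in the list of other E1 enzymes, and the remaining lists of other genes held none. Over all genes with a window the share was 3.46%. Control and Pdgfra-cre means were 2.09 ± 0.719 and 1.68 ± 0.408 FPKM for Skp2, and for Mocs3 they were 1.33 ± 0.647 and 0.879 ± 0.631 FPKM (SD, n = 3 each). Of these genes, only Stat2 had higher values in Pdgfra-cre.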
